A study of Mus musculus with 69 samples.

Results

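The genes described here are 10 genes of granulosa cells and of the inhibin, activin and AMH axis: Fshr, Inha, Inhba, Inhbb, Amh, Amhr2, Foxl2, Nr5a2, Fst and Insl3. They were listed by name, with earlier results of these data known, among 55964 gene IDs in the count tables. RNA-seq libraries were made from ovary, pituitary and hypothalamus of female C57BL/6J mice of 3 genotypes. Zeb1_WT mice (WT) carried the normal Zeb1 gene. Zeb1_200H mice (200H) had 1 allele, and Zeb1_200M mice (200M) both alleles, with base changes that remove the miR-200a/b sites from the transcript of Zeb1, a repressor of transcription. The changed allele was present in every cell of these mice, so no comparison below isolates its action in a single tissue. All females were staged for proestrus. The young cohort was made up of virgin females 8 to 12 weeks old, and the older cohort of females 28 to 36 weeks old that had been through a breeding trial. The knock-in lines came from more than 1 embryonic stem cell clone, and the sources used here do not give which mouse came from which clone.

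Each cohort, tissue and genotype had 4 libraries from separate mice, except WT pituitary of the young cohort, and 200M pituitary and hypothalamus of the older cohort, with 3 each. A library is named by genotype and replicate, and u marks the WT library of young pituitary without a usable number. Library totals ran from 6337205 to 12896366 counts in young ovary, 7985206 to 14655095 in older ovary, whereas pituitary libraries had 7560888 to 13342430 (young) and 4527753 to 12957678 (older). Young libraries were depleted of ribosomal RNA, stranded and paired-end. Older libraries were poly(A)-selected, unstranded and single-end, so age, breeding history and library chemistry cannot be told apart between cohorts. Within the older cohort, breeding history also went with genotype. The study reports that most females with both alleles changed produced no litter in the trial, and the others had fewer litters than WT. Older 200M differences from WT and from 200H below therefore combine genotype with pregnancy history, and the part of the latter was not tested. Levels are in CPM, counts scaled to library size, after TMM scaling within a tissue and cohort. The targeted gene was higher in knock-in pituitary of both cohorts, by 0.52 in young 200M and 0.55 in older 200M on the log2 scale (Zeb1, edgeR quasi-likelihood test, adjusted p = 2.39e-05 and 0.000833). In ovary Zeb1 lay between 174 and 220 CPM in the young and between 57.7 and 101.5 CPM in the older libraries, and passed the test in no genotype comparison of either cohort.

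The labelled tissues showed their defining genes. The zona pellucida gene Zp3 lay between 25.7 and 72.2 CPM in all ovary libraries, and Cga, the shared subunit of the pituitary glycoprotein hormones, between 505 and 1561 CPM in all pituitary libraries. Some older ovary libraries stood apart. A 5-gene list of oviduct and fat markers summed to 3407 CPM in 200M replicate 3 and to 3158 CPM in 200H replicate 4, against 41.7 to 786.9 CPM in the other 10. Most of the sum came from the oviduct glycoprotein gene Ovgp1, at 2715 and 2861 CPM. The aromatase gene Cyp19a1 was at 1.36 CPM in 200M replicate 3, against 49.6 to 383.4 CPM in the other older ovary libraries. In young ovary, 200H replicate 4 had the lowest Cyp19a1, at 13.9 CPM. Ovgp1 also varied there, at 11.9 CPM in 200H replicate 1 and 11.4 CPM in 200M replicate 4, against 180 to 524 CPM in the other young ovary libraries. The part of this variation in the levels of the 10 genes was not tested.

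Granulosa cells surround the oocyte and respond to FSH through the receptor encoded by Fshr. They secrete inhibins, each an alpha subunit (Inha) joined to a beta A (Inhba) or beta B (Inhbb) subunit, while beta subunits joined to each other form activins. Activins raise FSH production in pituitary gonadotropes, inhibins oppose them, and follistatin (Fst) binds and neutralises activin. Anti-Mullerian hormone (Amh) from granulosa cells of growing follicles restrains follicle recruitment through its receptor Amhr2. Foxl2 and Nr5a2 encode transcription factors needed for granulosa cell identity and for ovulation and luteinisation, respectively, and Foxl2 also acts in gonadotropes. Insl3 is a relaxin-like peptide made in the ovary mainly by theca cells.

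All 10 genes are protein coding in GENCODE M21 (GRCm38). Inha (chr1:75507077-75510366, plus strand), Inhbb (chr1:119415465-119422248, minus strand) and Nr5a2 (chr1:136842571-136960448, minus strand) lie on chromosome 1. Inhba (chr13:16011851-16031621, plus strand) and Fst (chr13:114452290-114458951, minus strand) lie on chromosome 13. The remaining loci are Fshr (chr17:88984952-89200675, minus strand), Amh (chr10:80805243-80807648, plus strand), Amhr2 (chr15:102445367-102454633, plus strand), Foxl2 (chr9:98955288-98958543, plus strand) and Insl3 (chr8:71689214-71690575, plus strand). Of these genes 3 share exon bases with another gene. The second exon of Insl3, 404 of its 623 exon bases, coincides with the end of Jak3, a kinase gene transcribed from the same strand. Only its first exon, the 219 bases at chr8:71689214-71689432, belongs to Insl3 alone, so counts of the 2 genes are uncertain where reads fell in shared bases. Foxl2 shares 12 of 3256 exon bases with the antisense gene Foxl2os, and Fst shares 115 of 4589 with the antisense gene Gm47040.

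Promoter windows from RefSeq (GRCm38.p6) were searched because Zeb1 binds E-boxes and Nr5a2 belongs to the nuclear receptors that bind a short half-site. A window ran over the 250 bases before a start site, and 8 of the 10 genes had an entry, with 9 windows in all. Amh and Fst had none. CACCTG, the E-box searched on both strands (CAGGTG on the other), was in the windows of Fshr, Nr5a2 and Insl3, or 3 genes. It was in 17.2% of all 32851 windows, a share per window and not per gene. The study gives the ZEB1 motif as CAGGTR, where R is A or G, and only the form with G was searched. The receptor half-site AGGTCA, also searched on both strands, was in the windows of Inha, Amhr2 and Nr5a2, also 3 genes, against 14% of all windows. The windows of Inhba, Inhbb and Foxl2 held neither of the strings searched. The stretches below are from the 2 genes whose ovarian level passed the test in 200M, with the motif in capitals. They run 5′ to 3′ on the gene's strand, from 200 to 41 bases before the start site of Insl3 (within Jak3, outside its annotated exons) and from 100 to 41 bases before each start site of Nr5a2. A match is a string of letters and not evidence of binding.
Insl3, chr8:71689052-71689211, plus strand: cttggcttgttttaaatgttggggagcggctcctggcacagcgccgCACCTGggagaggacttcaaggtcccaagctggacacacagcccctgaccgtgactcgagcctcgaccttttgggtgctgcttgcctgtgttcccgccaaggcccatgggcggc
Nr5a2 upstream start, chr1:136960489-136960548, minus strand: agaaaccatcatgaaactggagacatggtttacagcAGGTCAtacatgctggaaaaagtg
Nr5a2 downstream start, chr1:136953671-136953730, minus strand: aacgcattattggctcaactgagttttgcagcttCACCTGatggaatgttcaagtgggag

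Levels of the 10 genes were first ordered in WT ovary, in CPM per kilobase of exon so that genes of different length could be set side by side. In young WT ovary the inhibin alpha gene Inha led at 543 CPM per kilobase (range 498 to 617), followed by Inhba at 249 (203 to 316), Nr5a2 at 116 (103 to 126) and Inhbb at 57.2 (47.2 to 64.2). The ranges of these 4 genes did not overlap. Fshr at 40.1 lay below Inhbb without overlap, but overlapped with Fst at 30.7, which overlapped with Foxl2 at 29.3. The exon length used here for Fst was 4589 bases, over all transcripts. Over basic transcripts, the set on which ovary reads were counted, it is 2833 bases, which would place Fst higher. Its place in this order is therefore uncertain. Amh at 19.6 and Amhr2 at 18.5 overlapped with each other and lay below Foxl2. Insl3 was lowest when its full exon length was used, at 9.44 (7.81 to 10.4), below all the others. As 404 of its 623 exon bases are shared with Jak3, the bases that gave its counts are not known. Its place in the order is therefore uncertain.

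In older WT ovary Inha led again, at 2031 CPM per kilobase (1272 to 2382), with no overlap with any other gene. Inhba at 167, Inhbb at 156, Amh at 120, Nr5a2 at 79.4, Amhr2 at 72.7, Foxl2 at 61.2, Fst at 48.0, Fshr at 24.9 and Insl3 at 17.1 followed. Every neighbouring pair in that order overlapped among the 4 mice. The places of Fst and Insl3 again depend on the exon bases taken as their length. In WT pituitary Inha was also the highest of the 10, at 22.9 CPM per kilobase in young and 32.5 in older mice. The next 2 were Foxl2 at 7.12 and Inhbb at 4.29 in young pituitary, and Inhbb at 6.48 and Foxl2 at 2.69 in older pituitary, in each case without overlap. Insl3 at 1.54, Inhba at 1.07 and Nr5a2 at 0.66 were low in young pituitary, and Amhr2, Amh, Fst and Fshr lay at or under 0.13. Fshr had 0 counts in all 11 older pituitary libraries, which allows up to 0.232 to 0.663 CPM depending on the library.

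**Figure D1:**
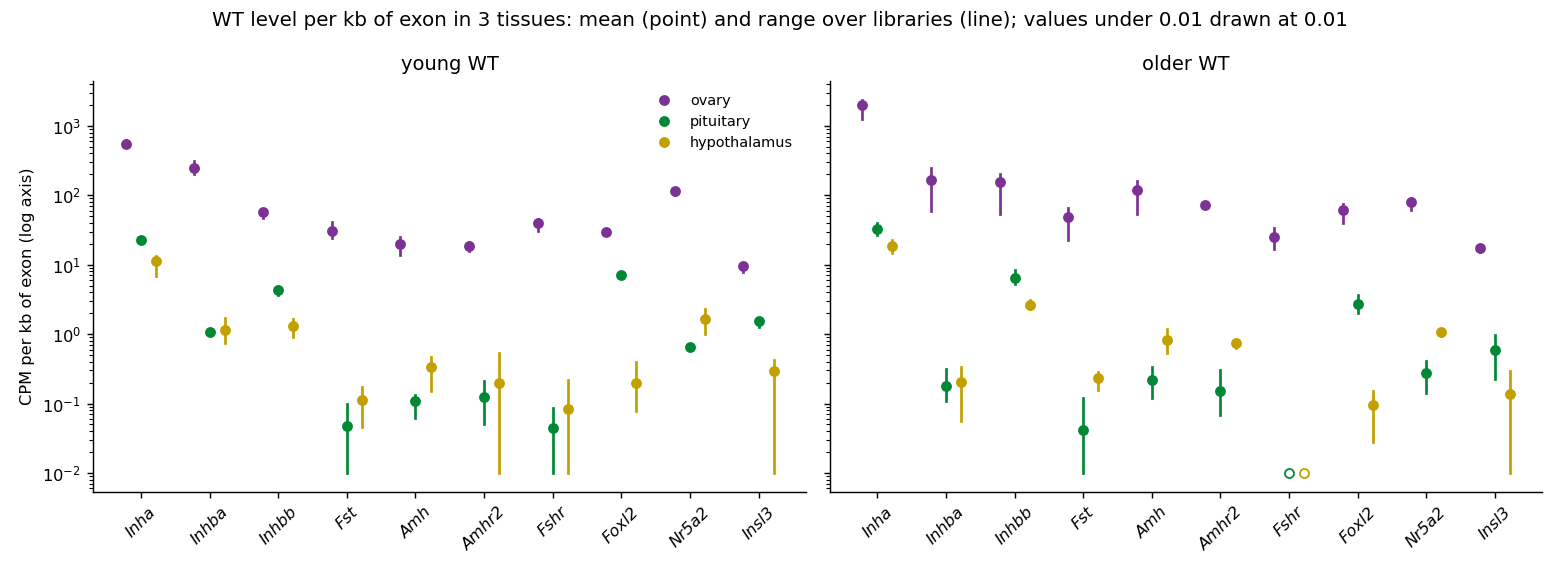
Level of each of the 10 genes in WT ovary, pituitary and hypothalamus of both cohorts, in CPM per kilobase of exon on a log axis, with the mean as a point and the range over libraries as a line. Values under 0.01 are drawn at 0.01, and open points mark Fshr at 0 counts. Inha was highest in all 3 tissues.

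The comparison of 200M with WT ovary asked whether granulosa genes differ in mice with the knock-in. In young ovary Nr5a2 rose by 0.39 on the log2 scale, to 1.31-fold of WT, and was the only gene of the 10 that passed the test. Genes counted as called had an adjusted p under 0.05 in the edgeR quasi-likelihood test with Benjamini-Hochberg adjustment over all genes tested. All 10 genes were tested in ovary, and 1 of 10 was called, against a background of 2.58% of 19250 genes called, or 0.878% called higher. Differences were above 0 for 9 of the 10, with a median of 0.29 against 0.0061 for all genes tested. An unadjusted p under 0.05 was found for 6 of the 10, and for 3114 of all 19250 genes.

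Among the transcription factors, Nr5a2 was at 682, 710, 743 and 605 CPM in WT replicates 1 to 4. The 200H libraries were at 1249, 729, 899 and 632 CPM, and the 200M libraries at 1011, 797, 769 and 1011 CPM. Every 200M library lay above every WT library, which 8.78% of all genes tested did in one direction or the other. The 200H libraries overlapped with both. The difference between 200M and WT was 0.39 (SE 0.095, adjusted p = 0.0473, edgeR). The call was near the threshold: it was lost on leaving out any 1 of 6 of the 8 libraries (WT replicates 1 to 4 and 200M replicates 1 and 4, adjusted p up to 0.174), and DESeq2 gave an adjusted p of 0.00332. Foxl2 was at 86.3 to 102 CPM in WT and 85.7 to 135 CPM in 200M, a difference of 0.098 (SE 0.12, adjusted p = 0.759). In bulk tissue, fewer cells of a type and less RNA per cell cannot be told apart, and this holds for every ovarian and pituitary level below.

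Among the hormone subunits, Inha was at 735 to 910 CPM in WT and at 1028, 968, 762 and 1095 CPM in 200M, of which 3 exceeded all WT libraries. Its difference was 0.27 (SE 0.097, adjusted p = 0.174). Without 200M replicate 3 it was 0.37 (adjusted p = 0.0408). The beta subunits moved less, at 0.10 (SE 0.19) for Inhba and 0.036 (SE 0.18) for Inhbb, with WT and 200M libraries interleaved. The library 200M replicate 3 was the lowest of its group for Inha, Inhba and Inhbb.

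Amh was at 22.8 to 41.2 CPM in WT and at 52.2, 30.9, 52.8 and 52.8 CPM in 200M. The 3 higher 200M libraries exceeded all WT libraries and replicate 2 lay among them, and the difference was 0.53 (SE 0.18, adjusted p = 0.16). Without replicate 2 it was 0.70 (adjusted p = 0.00714). Its receptor gene Amhr2 was at 31.2 to 42.9 CPM in WT and 42.8 to 52.5 CPM in 200M, so that only the highest WT library reached the 200M range. That difference was 0.31 (SE 0.10, adjusted p = 0.138). Within a library the ratio of Amhr2 to Amh per kilobase was 0.728 to 1.14 in WT and 0.702 to 1.155 in 200M, with overlapping ranges.

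The activin-binding gene Fst was at 110 to 188 CPM in WT and 155 to 235 CPM in 200M, a difference of 0.48 (SE 0.15, adjusted p = 0.107). The FSH receptor gene Fshr was the only one of the 10 below 0, at −0.17 (SE 0.12, adjusted p = 0.547). Insl3 was at 4.87 to 6.45 CPM in WT and at 6.10, 6.50, 16.1 and 8.74 CPM in 200M, resting on 48 to 109 counts a library. The difference was 0.65 (SE 0.27, adjusted p = 0.256), with 1 of the 4 libraries within the WT range.

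With 1 changed allele, none of the 10 genes was called in young ovary (200H against WT), where the background was 0.0051% of 19621 genes, or 1 gene. Of the 10, 2 had an unadjusted p under 0.05, Nr5a2 at 0.37 (SE 0.16) and Insl3 at 0.55 (SE 0.24), and DESeq2 called 0 of the 10. Over all genes 1384 of 19621 had such an unadjusted p. The 200H replicate 4 library was far below the other 3 for Inhba, at 451 against 1611 to 2103 CPM, and for Inhbb, at 74.2 against 213 to 318 CPM. Without it Inhba changed from −0.064 to 0.23 and Inha from −0.046 to 0.13. Inhbb (−0.18 to 0.10) and Foxl2 (−0.12 to 0.014) changed sign as well, and none of the 4 was called. Between 200M and 200H, 0 of 10 were called by edgeR and by DESeq2, 0 had an unadjusted p under 0.05, and the background was 0%. Across these 3 young ovary comparisons the mice of a genotype were used more than once, so their values are not independent.

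**Figure D2:**
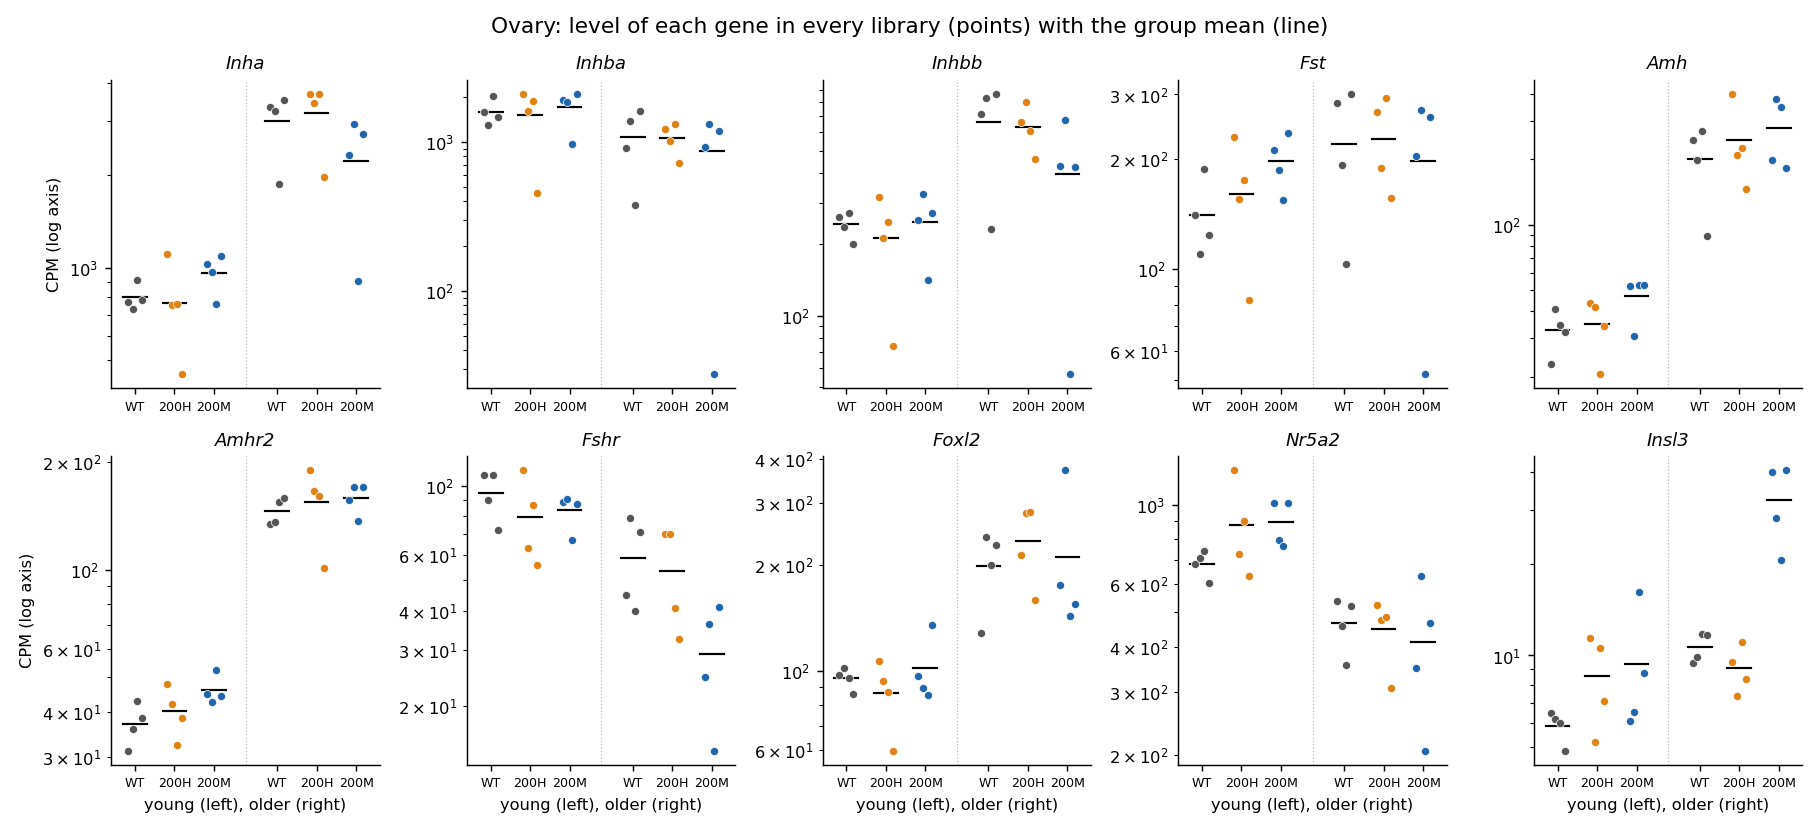
CPM on a log axis of the 10 genes in every ovary library (points) with the group mean (line), by genotype, young on the left and older on the right. Nr5a2 of young 200M and Insl3 of older 200M lay above all WT libraries, and 1 older 200M library was far below the rest for Inhba and Inhbb.

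In older ovary the gene that differed was Insl3. It was called higher in 200M at 3.03-fold of WT, and Jak3, with which it shares its second exon, was higher as well. Of the 10 genes 1 was called, against a background of 2.71% of 17792 genes, or 1.52% called higher. The median difference of the 10 was −0.17 against 0.041 for all genes tested. An unadjusted p under 0.05 was found for 2 of the 10, and for 2944 of all 17792 genes.

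Insl3 was at 9.43, 9.86, 11.7 and 11.7 CPM in WT, at 9.54, 7.35, 11.04 and 8.34 CPM in 200H, and at 40.1, 28.2, 20.6 and 40.6 CPM in 200M. All 4 of the 200M libraries were above all 8 of the others, and 200H overlapped with WT. Such a separation from WT was seen for 12% of genes tested. The difference was 1.60 (SE 0.23, adjusted p = 0.012, edgeR) against WT and 1.81 (SE 0.24, adjusted p = 0.0101) against 200H. Without the library 200M replicate 3 it was 1.75 against WT (adjusted p = 0.00528). Leaving out WT replicate 2 gave 1.56 and ended the call (adjusted p = 0.0601).

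Jak3, chosen for its overlap with Insl3, was at 26.3 to 31.4 CPM in WT, 19.6 to 29.7 CPM in 200H and 50.4 to 58.7 CPM in 200M of the older cohort. Its difference between 200M and WT was 0.92 (SE 0.10, adjusted p = 0.00437). In young ovary, where counting used strand but both genes lie on the same strand, Jak3 was at 14.4 to 18.9 CPM in WT and 15.9 to 26.5 CPM in 200M, a difference of 0.18 (SE 0.16, adjusted p = 0.656). The same young library, 200M replicate 3, was highest of its group for Insl3 and for Jak3, at 16.1 and 26.5 CPM. How far reads of either gene entered the count of the other was not tested, as the counts are per gene.

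**Figure D3:**
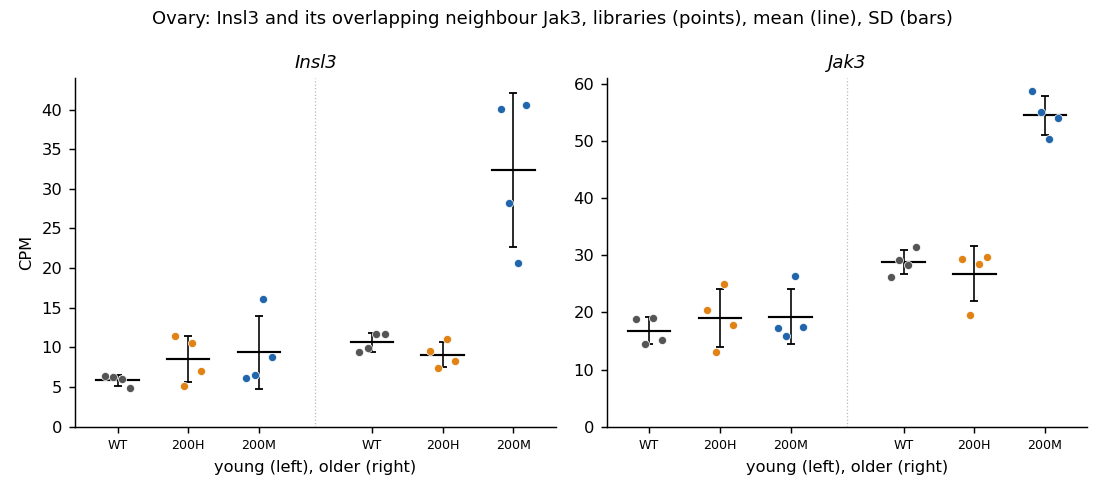
CPM of Insl3 and of Jak3 in every ovary library (points), with the group mean (line) and SD (bars), young on the left and older on the right. The 4 older 200M libraries lay above all older WT and 200H libraries for both genes, while genotypes overlapped in young ovary.

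The other 9 genes did not pass the test in older 200M ovary. Fshr was at 45.1, 79.0, 39.9 and 71.1 CPM in WT and at 24.7, 36.5, 14.4 and 41.2 CPM in 200M, so that only the highest 200M library reached the lowest WT library. Its difference was −1.01 (SE 0.34, adjusted p = 0.172). DESeq2 called it (adjusted p = 0.0395). Without 200M replicate 3 the edgeR difference was −0.80 (adjusted p = 0.198).

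The inhibin subunits spread widely in this group. Inha was at 3348, 3244, 1876 and 3513 CPM in WT and at 2321, 2948, 904 and 2725 CPM in 200M, a difference of −0.43 (SE 0.35, adjusted p = 0.56). Inhba was at 379 to 1601 CPM in WT and at 922, 1316, 27.6 and 1190 CPM in 200M, and Inhbb at 233 to 871 CPM in WT and at 430, 675, 56.5 and 424 CPM in 200M. Replicate 3 of 200M, the library with high oviduct markers and almost no Cyp19a1, was the lowest for each. Without it the difference of Inhba went from −0.31 to 0.077, that of Inha from −0.43 to −0.19 and that of Inhbb from −0.75 to −0.40. The other-granulosa list, 14 genes, summed to 2464 CPM in that library, against 3544 to 5549 CPM in the other 11, and the part of its cell makeup in these values was not tested.

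Amh was at 89.2 to 269 CPM in WT and 182 to 379 CPM in 200M, a difference of 0.47 (SE 0.36, adjusted p = 0.536), and Amhr2 differed by 0.12 (SE 0.11, adjusted p = 0.59). The coefficient of variation of Amhr2 was 8.47% in WT, 24.3% in 200H and 9.89% in 200M, and that of Inhba 50.8%, 24.4% and 67.3%. Foxl2 differed by 0.086 (SE 0.32), Nr5a2 by −0.18 (SE 0.30) and Fst by −0.16 (SE 0.49). Without 200M replicate 3 these were 0.22, 0.032 and 0.14, so that Nr5a2 and Fst changed sign, and none was called. In none of these 3 did the groups separate.

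In older 200H ovary none of the 10 was called against WT. No gene of 17605 was called there by edgeR (0%), although 1160 had an unadjusted p under 0.05 and DESeq2 called 23, and of the 10 genes none had an unadjusted p under 0.05. Between 200M and 200H, 1 of 10 was called, Insl3, against a background of 1.61% of genes, or 0.711% called higher and 9.64% without overlap. Without 200H replicate 4, the other library with high oviduct markers, Insl3 differed by 1.78 (adjusted p = 0.0293).

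Marker genes of other ovarian cell types were followed as lists. Over all genes tested 2.58% were called in young and 2.71% in older 200M ovary. The list of luteal genes, 9 genes, holds genes that the study itself drew from these libraries, so its direction is not independent evidence. In young ovary 4 of the 9 fell in 200M and none rose, with a median of −1.52 on the log2 scale. Akr1c18, which inactivates progesterone, went from 83.1 ± 16.2 (SD, n = 4) to 6.64 ± 12.1 CPM (SD, n = 4), and the prolactin receptor gene Prlr from 1245 ± 199 to 763 ± 166 CPM. Parm1 also fell, by 0.38.

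In older ovary 5 of the 9 luteal genes fell, with a median of −3.67. Sfrp4, a secreted Wnt antagonist, went from 2855 ± 959 (SD, n = 4) to 27.8 ± 8.54 CPM (SD, n = 4), Runx2 from 76.9 ± 28.2 to 6.04 ± 0.91 CPM, and the prostaglandin F receptor gene Ptgfr from 846 ± 590 to 5.04 ± 1.33 CPM. Summed over the list, luteal genes lay between 5644 and 7242 CPM in young WT and 3923 and 6789 CPM in young 200M. In older ovary they lay between 10310 and 24830 CPM in WT and 3725 and 8298 CPM in 200M, and none was at 0. The part of these luteal genes in the values of Nr5a2 and Insl3 was not tested.

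Among the other granulosa genes, 2 of 14 were called in young 200M ovary, both higher. Differences were above 0 for 9 of the 14 and below 0 for 5, with a median of 0.045. The largest was downward, Wnt4 at −1.07 (SE 0.29, adjusted p = 0.0748, edgeR), which was not called. Esr2, the estrogen receptor of granulosa cells, went from 210 ± 29.6 (SD, n = 4) to 342 ± 36.5 CPM (SD, n = 4), and Kitl, the ligand by which granulosa cells signal to the oocyte, from 167 ± 7.91 to 229 ± 28.0 CPM. In older 200M ovary none of the 14 was called, with a median of −0.20. Of 8 theca genes 1 fell in young 200M ovary, Cyp11a1, the cholesterol side-chain cleavage enzyme that luteal cells also make, by 0.69 (SE 0.13, adjusted p = 0.0185), and none was called in older ovary. Theca differences were above 0 for 5 of the 8 genes and below 0 for 3 in young 200M ovary, with a median of 0.12. In older 200M ovary they were above 0 for 4 and below 0 for 4, with a median of −0.15. Summed over the theca list, WT lay at 3199 to 4078 CPM and 200M at 2254 to 4292 CPM in young ovary, and at 5615 to 16500 against 1885 to 6633 CPM in older ovary. Of the young WT sum, Lhcgr and Cyp11a1 averaged 2264 and 1024 CPM.

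None of the oocyte genes (9 of 10 tested) and none of the 5 oviduct and fat genes was called in 200M ovary of either cohort. Their medians were 0.37 and −0.21 in young ovary and 0.35 and 1.94 in older ovary. In 200H ovary none of the genes of these lists was called in either cohort. Between 200M and 200H, 5 of the 9 luteal genes were lower in older ovary, and no other gene of these lists was called in either cohort.

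The receptors, Smads and binding proteins through which activins, AMH and BMPs act were followed as a list of 21 genes. In young 200M ovary 1 of 19 tested was called, where 2.58% of all genes were called, and 2.71% in older 200M ovary. It was Bmpr1b, a type I receptor for BMPs, which rose from 164 ± 17.6 (SD, n = 4) to 236 ± 23.7 CPM (SD, n = 4), or by 0.53 (SE 0.090, adjusted p = 0.0104). In older 200M ovary 1 of 19 was called as well, Smad9, a BMP-activated Smad, which fell from 18.1 ± 5.01 to 7.32 ± 1.60 CPM, or by 1.30 on the log2 scale (SE 0.25, adjusted p = 0.0324). The medians over the list were 0.011 and −0.20, against 0.0061 and 0.041 for all genes tested. No gene of this list was called in 200H ovary of either cohort or between 200M and 200H.

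In pituitary the comparison asked how the inhibin and activin subunits made there differ in knock-in mice. Inha fell in 200M and in 200H of both cohorts, by 0.43 to 0.69 on the log2 scale. Inhba fell in young 200M, and Foxl2 rose in 200M and 200H of the older cohort. Inhbb, the partner of Inha in inhibin B, did not pass the test in any pituitary comparison. Genes with too few counts were not tested: Fshr, Amh, Amhr2 and Fst in every pituitary comparison, Insl3 in all but the young 200M against WT comparison, and Inhba in the older cohort.

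Inha in young pituitary was at 33.1, 32.0 and 36.3 CPM in WT, at 23.2, 26.4, 27.2 and 22.8 CPM in 200H, and at 23.1, 19.6, 19.9 and 25.9 CPM in 200M. All 8 knock-in libraries were below all 3 WT libraries, and 200H overlapped with 200M. Mice with both alleles changed (200M) differed from WT by −0.61 (SE 0.11, adjusted p of 0.00104 by edgeR), and 200H mice by −0.43 (SE 0.10, adjusted p of 0.0138). Without WT replicate u the 200H value was −0.38 (adjusted p = 0.0804).

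In older pituitary Inha was at 39.9, 58.3, 45.3 and 48.2 CPM in WT, at 30.4, 33.6, 35.3 and 36.6 CPM in 200H, and at 29.3, 27.9 and 32.5 CPM in 200M. Again all 7 knock-in libraries were below all WT libraries. Mice with both alleles changed (200M) differed from WT by −0.69 (SE 0.13, adjusted p of 0.00279 by edgeR), and 200H mice by −0.50 (SE 0.12, adjusted p of 0.0152). The counts behind the pituitary values of Inha were 138 to 682 a library.

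Inhba was at 6.85, 6.61 and 7.08 CPM in young WT pituitary, at 5.94, 5.52, 3.30 and 7.58 CPM in 200H, and at 5.23, 4.04, 3.95 and 4.70 CPM in 200M. All 200M libraries were below WT, and 200H spanned both. Mice with both alleles changed (200M) differed from WT by −0.60 (SE 0.18, adjusted p of 0.0274 by edgeR), and 200H mice by −0.28 (SE 0.24, adjusted p of 0.513), on 33 to 72 counts a library. The 200M call was lost on leaving out 5 of the 7 libraries in turn (WT replicates 1, 2 and u, 200M replicates 2 and 3, adjusted p up to 0.0888). In older pituitary Inhba had 3 to 10 counts a library, too few to be kept for the test.

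Inhbb was at 15.6 to 19.7 CPM in young WT, 16.0 to 21.4 CPM in 200H and 17.0 to 23.2 CPM in 200M, and the groups overlapped. In older pituitary it was at 22.1 to 35.4 CPM in WT, 27.1 to 39.2 CPM in 200H and 25.3 to 32.9 CPM in 200M. The largest of the 4 differences from WT was 0.37 (SE 0.15, adjusted p = 0.147), in older 200H. The ratio of Inha to Inhbb within a library, per kilobase, lay lower in the knock-in libraries. In young pituitary it was 4.84 to 5.94 in WT, 3.14 to 4.17 in 200H and 2.86 to 4.39 in 200M, without overlap with WT. In older pituitary it was 3.69 to 6.28 in WT, 2.30 to 3.58 in 200H and 2.45 to 3.71 in 200M, where the highest 200M library just overlapped with the lowest WT library.

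Foxl2 was at 6.81, 6.66, 9.70 and 11.9 CPM in older WT pituitary, at 13.7, 15.3, 18.6 and 13.3 CPM in 200H, and at 13.8, 17.9 and 12.6 CPM in 200M. All 7 knock-in libraries were above all 4 WT libraries, and the knock-in genotypes overlapped. Mice with both alleles changed (200M) differed from WT by 0.78 (SE 0.22, adjusted p of 0.0242 by edgeR), and 200H mice by 0.79 (SE 0.20, adjusted p of 0.0216), on 48 to 143 counts a library. The call was lost without WT replicate 1, WT replicate 2, 200M replicate 1 or 200M replicate 2 in the first (adjusted p up to 0.149), and without WT replicate 1, WT replicate 2 or 200H replicate 3 in the second (adjusted p up to 0.0723).

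In young pituitary Foxl2 was at 21.2 to 25.9 CPM in WT, 19.95 to 27.9 CPM in 200H and 22.9 to 27.4 CPM in 200M, and groups overlapped: the 200M difference was 0.14 (SE 0.11, adjusted p of 0.404), the 200H difference 0.098 (SE 0.13, adjusted p of 0.696). Its antisense partner Foxl2os was at 34.9 to 44.5 CPM in older WT, 57.7 to 66.9 CPM in 200H and 48.6 to 62.5 CPM in 200M. It rose by 0.61 in 200H (adjusted p = 0.00173) and by 0.42 in 200M (adjusted p = 0.0224). The older counts carry no strand, so reads of Foxl2 and Foxl2os in their 12 shared bases cannot be told apart there. In young pituitary, counted by strand, Foxl2os differed by 0.26 (adjusted p = 0.0718) in 200M and 0.34 (adjusted p = 0.0639) in 200H.

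Nr5a2 was low in pituitary, at 2.56 to 6.09 CPM in young and 0.834 to 2.55 CPM in older libraries over all genotypes, and passed the test in no pituitary comparison. Insl3 was tested once, in young 200M, with a difference of −0.14 (SE 0.44, adjusted p = 0.864). The untested Amh, Amhr2, Fst and Fshr stayed at or under 1.37 CPM in every pituitary library.

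**Figure D4:**
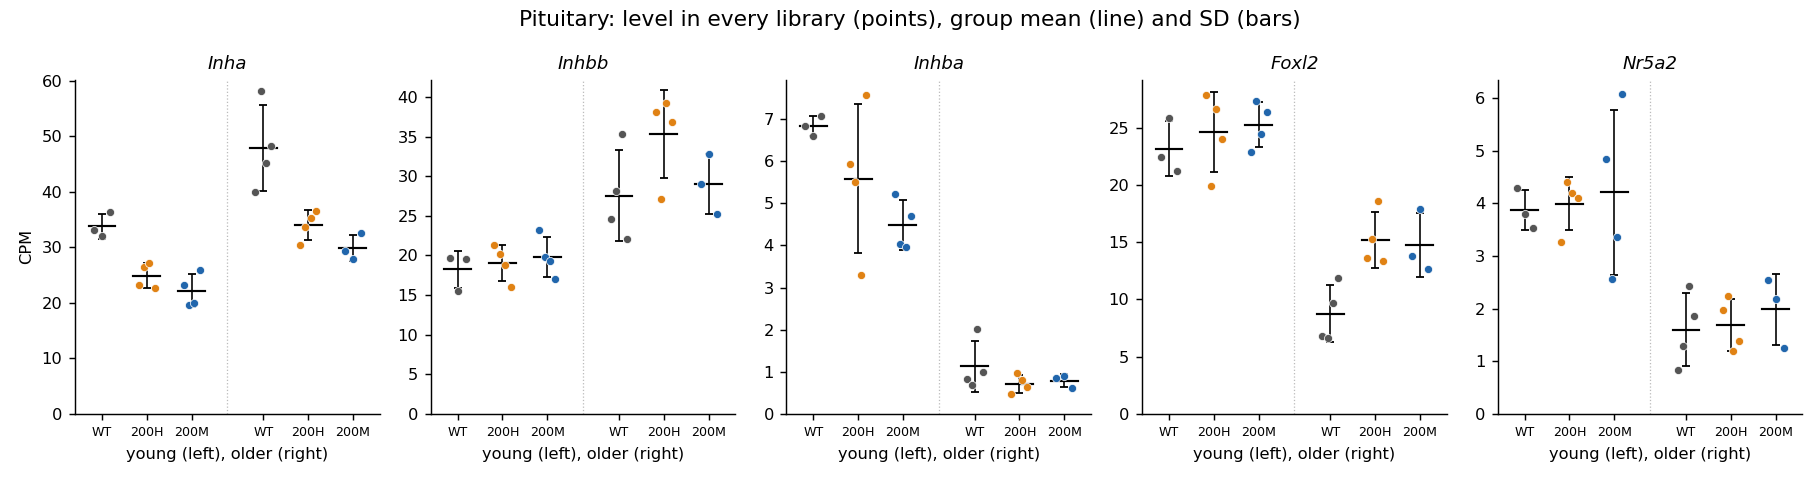
CPM of Inha, Inhbb, Inhba, Foxl2 and Nr5a2 in every pituitary library (points), with the group mean (line) and SD (bars), young on the left and older on the right. Inha of all knock-in libraries lay below WT in both cohorts, and Foxl2 of older knock-in libraries lay above WT.

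These calls stood against a background in which many pituitary genes differed. In young 200M, 2 of 6 genes tested were called, both lower, where 21.5% of 18199 genes were called and 10% called lower, and 2 of 6 did not overlap with WT, against 29.7%. In young 200H, 1 of 5 was called, lower, against 12.3% called and 5.72% called lower, and 1 of 5 did not overlap, against 23.7%. In older 200M, 2 of 4 were called, 1 lower and 1 higher, against 21.4% called, 9.77% lower and 11.7% higher, and 2 of 4 did not overlap, against 31.6%. In older 200H, 2 of 4 were called against 12.2%, with 5.14% lower and 7.09% higher, and 2 of 4 did not overlap, against 17.5%. With 4 to 6 genes tested, these shares do not set the group apart from other genes.

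Between 200M and 200H no gene of the 10 was called in pituitary, by edgeR or by DESeq2. The backgrounds were 0.0383% for young and 0.121% for older pituitary, and none of the genes tested had an unadjusted p under 0.05. The differences of Inha were −0.18 (SE 0.11) and −0.20 (SE 0.11).

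**Figure D5:**
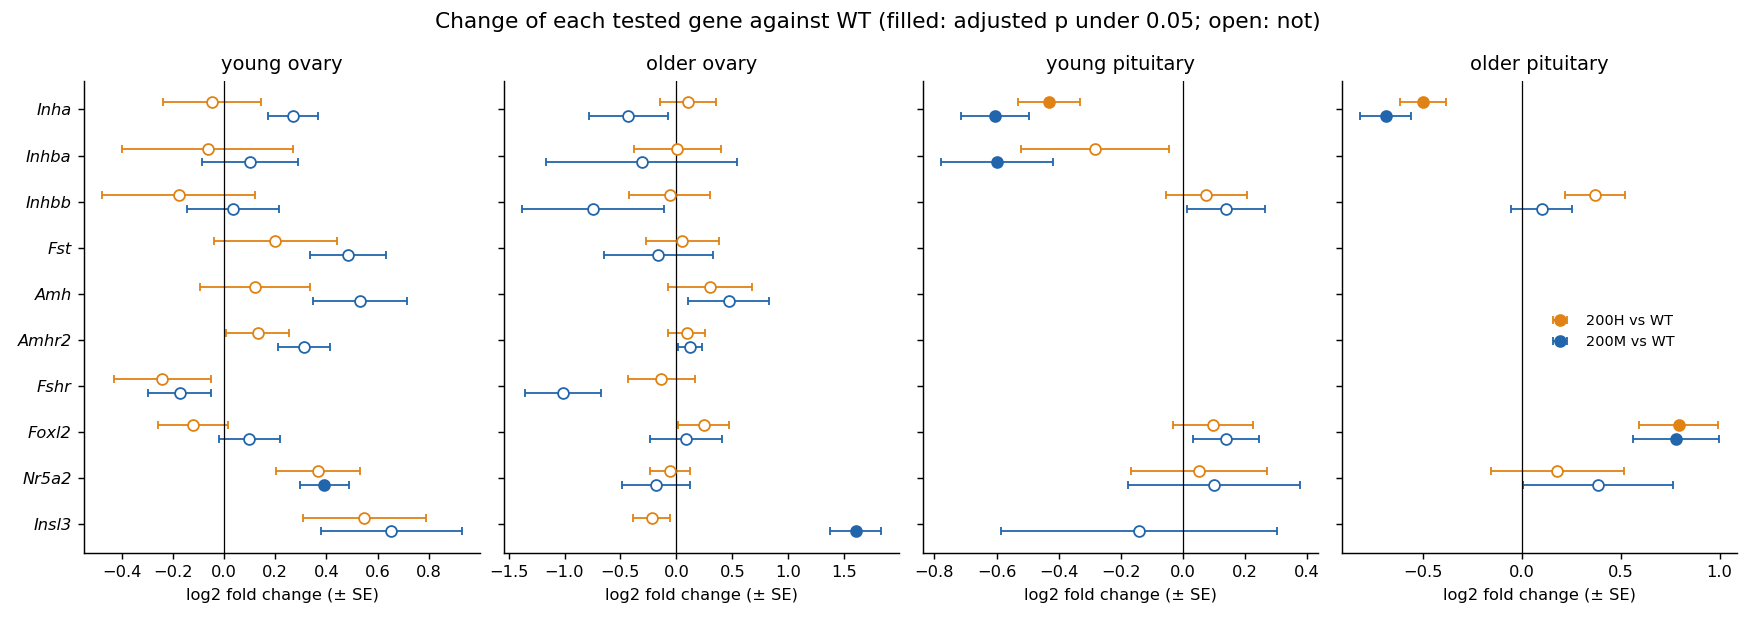
Difference from WT on the log2 scale of each gene tested, in ovary and pituitary of both cohorts, for 200H and 200M, with bars of 1 SE, an axis of its own in each panel and filled points where the adjusted p was under 0.05. Inha of pituitary lay below 0 in all 4 comparisons, and Insl3 of older 200M ovary was the farthest from 0.

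Gonadotropes, the pituitary cells that respond to activin and inhibin, were followed by a list of 6 genes. In young 200M pituitary 3 fell and 1 rose. Over all genes tested 21.5% were called there, and 21.4% in older 200M pituitary. Tgfbr3l, a co-receptor for inhibin B, went from 143 ± 15.5 (SD, n = 3) to 50.5 ± 5.65 CPM (SD, n = 4), Lhb, the beta subunit of LH, from 120 ± 19.2 to 36.6 ± 8.97 CPM, and Cga from 928 ± 102 to 579 ± 58.8 CPM. Nr5a1, a transcription factor of gonadotropes, rose from 9.10 ± 1.31 to 16.4 ± 1.18 CPM. The same 4 genes were called in the same directions in older 200M pituitary, Lhb going from 284 ± 41.6 (SD, n = 4) to 55.8 ± 25.1 CPM (SD, n = 3), Cga from 1458 ± 171 to 834 ± 83.8 CPM and Nr5a1 from 32.9 ± 5.09 to 62.3 ± 8.33 CPM.

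The FSH beta subunit gene Fshb, whose expression activin raises, was at 90.0 ± 28.6 (SD, n = 3) in WT and 82.0 ± 15.5 CPM (SD, n = 4) in 200M of the young cohort, a difference of −0.12 (SE 0.18, adjusted p = 0.688). The older cohort had Fshb at 57.4 ± 22.0 (SD, n = 4) in WT and 92.1 ± 18.8 CPM (SD, n = 3) in 200M, a difference of 0.67 (SE 0.24, adjusted p = 0.0673). Summed over the 6 genes, the list lay at 1294 to 1605 CPM in young WT and 903 to 1091 CPM in young 200M, and at 1661 to 2080 against 1077 to 1186 CPM in older pituitary. Gene by gene, differences from WT were above 0 for 2 and below 0 for 4 in young 200M. In older 200M they were above 0 for 3 and below 0 for 3. None of the 6 was at 0 in any group. In 200H, 4 of 6 were called in young and 3 of 6 in older pituitary, against 12.3% and 12.2% of all genes tested. The study describes Lhb from these libraries, so the list is not independent evidence, and the part of gonadotrope number in the values of Inha, Inhba and Foxl2 was not tested.

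In the list of 21 receptors, Smads and binding proteins, 8 of 19 tested were called in young 200M pituitary, 4 higher and 4 lower. Over all genes tested 21.5% were called there, and 21.4% in older 200M pituitary. Beside Tgfbr3l, betaglycan (Tgfbr3), the inhibin A co-receptor, rose by 0.57 (SE 0.089, adjusted p = 0.000343) and the activin and nodal receptor gene Acvr1c fell by 0.89 (SE 0.16, adjusted p = 0.00109). In older 200M pituitary 6 of 18 were called, 3 in each direction, with Tgfbr3l at −0.73 (SE 0.15), Tgfbr3 at 0.49 (SE 0.12) and the BMP receptor gene Bmpr2 at 0.46 (SE 0.12). In 200H, 4 of 19 were called in young and 2 of 18 in older pituitary, against 12.3% and 12.2% of all genes tested. Between 200M and 200H the only call in this list, and in the gonadotrope list, was Tgfbr3l in young pituitary, lower in 200M by 0.64 (SE 0.099, adjusted p = 0.0399).

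Markers of other pituitary cells were followed as well, where 21.5% of all genes tested were called in young and 21.4% in older 200M pituitary. Of 3 pituicyte genes 2 rose in 200M of both cohorts, Scn7a by 0.50 and Col25a1 by 0.36 in young and by 0.47 and 0.56 in older pituitary. Their list summed to 188 to 197 CPM in young WT and 232 to 276 CPM in young 200M, and to 94.8 to 118 and 134 to 168 CPM in the older cohort. In 200H, 1 of 3 was called in each cohort, against 12.3% of all genes tested in young and 12.2% in older pituitary. Among stem and folliculostellate genes the only call was Sox9 in older 200M, at 0.67 (SE 0.17, adjusted p = 0.0168).

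Whether the effect of both changed alleles differed between tissues or cohorts was tested as an interaction. The labels do not give which ovary and pituitary libraries came from the same mouse, so the fit took them as independent. In the young cohort the 200M effect on Inha differed between tissues, being higher in ovary than in pituitary by 0.87 (SE 0.16, adjusted p = 0.0011, edgeR), as Inha was at 0.27 in ovary and −0.61 in pituitary. It was 1 of 6 genes tested, against a background of 10.1% called, or 4.45% called higher. In the older cohort the same difference for Inha was 0.24 (SE 0.43, adjusted p = 0.817), and 0 of 4 genes were called, against 5.77%.

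Between cohorts, 0 of 10 genes were called in ovary, against 0.197%, with Insl3 at 0.92 (SE 0.38, adjusted p = 0.343) and Fshr at −0.86 (SE 0.38, adjusted p = 0.37). In pituitary 0 of 4 were called, against 0.0273%, with Foxl2 at 0.60 (SE 0.24, adjusted p = 0.665). DESeq2 called none of the genes in these 3 interactions either. The call for Insl3 in older ovary alone and for Foxl2 in older pituitary alone was therefore not shown to differ between cohorts.

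Genes with the most similar pattern were sought for the genes called in a tissue, by Pearson's correlation of log2 CPM over all libraries of that tissue after subtracting the mean of each cohort. These are descriptions, since libraries share genotype, scaling and cell makeup. In ovary (24 libraries, 11687 genes) Insl3 was most like Jak3 (r = 0.93), then the adhesion molecule gene Vcam1 (0.86) and the complement gene C7 (0.84). C7 was higher in older 200M ovary by 2.66 (SE 0.30, adjusted p = 0.00518), and Vcam1 in young 200M ovary by 0.81 (SE 0.13, adjusted p = 0.00706). Correlations of Insl3 with the other 9 genes ran from −0.42 for Fshr to 0.32 for Amhr2.

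Nr5a2 in ovary was most like the gap junction gene Gja1, Jak1 and Map3k5, each at r = 0.89. Among the 10 genes it was close to Fst (0.87), Inha (0.86), Inhba (0.77) and Inhbb (0.77), and far from Amh (0.097) and Insl3 (0.055). In pituitary (22 libraries, 10751 genes) Inha was most like Large2 (0.94), Lsr (0.93) and Ankrd24 (0.92). These 3 genes also fell in 200M and 200H of both cohorts. The log2 difference of Lsr, a tight junction gene, was between −2.01 in young 200H and −3.002 in older 200M. Foxl2 was most like Pcdh7 (0.84), Wwc2 (0.82) and Dip2c (0.81), and its correlation with Inha was −0.61. Inhba was under the level minimum of 5 CPM in older pituitary and was left out.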

How the data were processed

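RNA-seq counts per gene were deposited by the authors in 18 tables, 1 per genotype pair, tissue and cohort. Per the labels and methods, reads were aligned with STAR 2.7.1a to mm10. Young libraries and older ovary were counted with featureCounts (GENCODE vM25 basic), by strand in the young cohort only, and older pituitary and hypothalamus with HTSeq 0.9.1 (Ensembl GRCm38.87), without strand. Whether featureCounts counted reads lying in overlapping genes is not given in the sources used here. The authors' DESeq2 results and normalized columns, and 3 WT columns of 1 young pituitary table with a repeated library name, were not used, and the WT columns of the 200M table stood in for them. Of 99 library pairs within groups, none agreed within sampling noise.

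Raw counts were tested with edgeR 4.0.16 (limma 3.58.1, R 4.3.3) by the quasi-likelihood F test, each genotype pair fitted within its tissue and cohort, with filterByExpr, TMM scaling and Benjamini-Hochberg adjustment over all genes kept. Interactions used 4 groups. Code was tested on simulated data. DESeq2 1.42.0, its size factors, no filter, all 3 genotypes in 1 fit, a replicate block and leaving out each library were alternatives. CPM per kilobase used GENCODE M21 exon lengths over all transcripts, whereas young libraries and older ovary were counted on basic transcripts. The 10 genes and the lists were chosen with earlier results of these data known. All 10 are named in every comparison. From other lists at most 3 called genes of smallest p in 200M against WT are named, plus genes that define a cell type, and for genes called in a tissue the 3 of highest correlation. Jak3, Foxl2os and Zeb1 were added as overlapping or targeted genes, and Wnt4 as the largest difference of its list in young 200M ovary. P-values judge a difference between groups against the spread between mice within groups. For differences between tissues, ovary and pituitary libraries were taken as independent, although some may come from the same mouse.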

Additional observations from a re-analysis of the deposited data

Results flagged for a closer look

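Gaps within a group were looked for in 79 gene and group combinations of 4 libraries with a mean of at least 1 CPM, and 5 had a library farther from its group than the 95% limit of Dixon's test, while chance gives about 1 in 20. In young 200M ovary, replicate 3 was low for Fshr, at 67.4 CPM against 87.3 to 91.0 CPM in the others, and replicate 2 was low for Amh, at 30.9 CPM against 52.2 to 52.8 CPM. In older ovary, Inha was low in WT replicate 3, at 1876 CPM against 3244 to 3513 CPM, and in 200H replicate 4, at 1973 CPM against 3450 to 3686 CPM. Foxl2 was high in 200M replicate 2 of older ovary, at 371.3 CPM against 143 to 176 CPM. The 200M effect on Inha differed between ovary and pituitary of the young cohort by 0.87 on the log2 scale, by the test of the difference itself.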

How the results depend on the processing

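The 112 fitted values for the 10 genes were recomputed in 1562 alternative fits, of which 1426 kept direction and side of the threshold, 28 lost a call, 9 gained one and 99 changed sign. No sign change touched a value that was called as reported. The number of the 10 genes called moved as follows, and the cause was not tested. In young ovary, 200M against WT, it was 3 with no filter on low counts, 0 with all 3 genotypes in 1 fit, and 0 to 2 on leaving out 1 library. In young pituitary, 200M against WT, it was 1 with no filter, 1 with all 3 genotypes in 1 fit and 1 to 2 on leaving out 1 library, and for 200H against WT 0 to 1. In older ovary, 200M against WT, it was 2 by DESeq2 and 0 to 1 on leaving out 1 library. In older pituitary it was 1 to 2 on leaving out 1 library in 200M and in 200H, and 3 with no filter in 200H. The ovary and pituitary difference of the young cohort gave 2 with no filter and 1 to 2 on leaving out 1 library. Genes gained were Amh (adjusted p = 0.00104) and Fst (0.000374) in young ovary, Inhbb (0.0403) in older 200H pituitary and Inhba (0.00431) in that difference, all with no filter in edgeR. Without WT replicate 3, Fst was called in young ovary (adjusted p = 0.0268, edgeR), and without young ovary 200M replicate 3, Inhba was called in the difference between tissues (adjusted p = 0.0135).

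With the replicate number as a block the 10 genes gave 0 calls in young ovary 200M against WT (Nr5a2, adjusted p = 0.164, edgeR), 1 in young pituitary 200M against WT, 0 in young pituitary 200H against WT (Inha, 0.0928), 0 in older ovary 200M against WT (Insl3, 0.0602) and 0 in older ovary 200M against 200H (Insl3, 0.0658). The block changed no other count of calls among the 10. It turned the sign of Inhbb in young ovary 200M against WT (−0.0097), of Nr5a2 (−0.15) and Insl3 (0.10) in young pituitary 200M against WT, of Foxl2 (−0.0169) and Nr5a2 (−0.0772) in young pituitary 200H against WT, and of Inhbb (0.0708) in older ovary 200H against WT. Same-numbered libraries deviated together, with a correlation above 0.1, in 9 of 42 pairs (−0.531 to 0.436, 24 below 0). Whether same-numbered samples shared a litter or handling is not given in the sources used here, and this check cannot exclude it. With all 3 genotypes in 1 fit, Inhba in older ovary 200H against WT was −0.0012.

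Leaving out 1 library gave both signs for values near 0, given as log2 ranges. In young ovary 200M against WT the ranges were −0.012 to 0.30 for Inhba, −0.12 to 0.23 for Inhbb and −0.066 to 0.17 for Foxl2. In young ovary 200H against WT the ranges were −0.28 to 0.13 for Inha, −0.27 to 0.23 for Inhba, −0.43 to 0.10 for Inhbb, −0.025 to 0.30 for Amh, −0.24 to 0.014 for Foxl2 and −0.024 to 0.41 for Fst. In young ovary 200M against 200H the ranges were −0.054 to 0.28 for Fshr, −0.13 to 0.37 for Inhba, −0.0603 to 0.47 for Inhbb, −0.091 to 0.24 for Nr5a2 and −0.27 to 0.29 for Insl3. In young pituitary 200M against WT the ranges were −0.091 to 0.28 for Nr5a2 and −0.26 to 0.069 for Insl3. In young pituitary 200H against WT the ranges were −0.025 to 0.15 for Inhbb and −0.011 to 0.14 for Nr5a2. In young pituitary 200M against 200H the ranges were −0.024 to 0.12 for Inhbb, −0.053 to 0.11 for Foxl2 and −0.15 to 0.23 for Nr5a2. In older ovary 200M against WT the ranges were −0.61 to 0.077 for Inhba, −0.34 to 0.22 for Foxl2, −0.48 to 0.032 for Nr5a2 and −0.40 to 0.14 for Fst. In older ovary 200H against WT the ranges were −0.30 to 0.04 for Fshr, −0.079 to 0.27 for Inha, −0.29 to 0.26 for Inhba, −0.36 to 0.086 for Inhbb, −0.051 to 0.47 for Amh, −0.032 to 0.24 for Amhr2, −0.18 to 0.0796 for Nr5a2 and −0.20 to 0.23 for Fst. In older ovary 200M against 200H the ranges were −0.61 to 0.072 for Inhba, −0.0098 to 0.52 for Amh, −0.13 to 0.15 for Amhr2, −0.40 to 0.086 for Nr5a2 and −0.41 to 0.091 for Fst. In older pituitary 200M against WT the range was −0.0053 to 0.23 for Inhbb. In older pituitary 200H against WT the range was −0.016 to 0.36 for Nr5a2. In older pituitary 200M against 200H the range was −0.19 to 0.081 for Foxl2. In the difference of the 200M effect between cohorts in ovary the ranges were −0.33 to 0.0898 for Amh and −0.44 to 0.13 for Foxl2. In that difference in pituitary the range was −0.18 to 0.066 for Inhbb. In the difference of the 200M effect between tissues in young mice the ranges were −0.27 to 0.09 for Inhbb and −0.20 to 0.037 for Foxl2.

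Over all genes, counts of calls moved by more than 1.5 times as follows. Young ovary 200M against WT went from 497 to 886 (DESeq2), 845 (no filter), 109 (all 3 genotypes), 150 (block) and 112 to 1214 (without 200M replicate 1 and without 200M replicate 2). Young ovary 200H against WT went from 1 to 95 by DESeq2 and 241 with no filter, 0 with the block and 0 to 9 leaving out 1 library, and 200M against 200H from 0 to 9 and 45. Young pituitary 200H against WT gave 1196 without WT replicate u against 2218, and 200M against 200H gave 58 by DESeq2, 130 with no filter, 12 with all 3 genotypes, 0 with the block and 0 to 26 leaving out 1 library, against 7. Older ovary 200M against WT went from 482 to 1321 (DESeq2), 815 (all 3 genotypes), 101 (block) and 87 (without WT replicate 2), 200H against WT from 0 to 23 (DESeq2) and 1 (no filter), and 200M against 200H from 288 to 889 (DESeq2), 77 (block) and 77 (without 200M replicate 1). Older pituitary 200M against WT gave 1867 without 200M replicate 3 against 3153, 200H against WT gave 1159 without WT replicate 2 against 1825, and 200M against 200H gave 132 by DESeq2, 549 with no filter, 11 with all 3 genotypes and 0 to 407 leaving out 1 library, against 18. Of the differences of effects, that between cohorts in ovary gave 370 by DESeq2, 123 with no filter and 1 to 252 leaving out 1 library against 43, that in pituitary 16, 78 and 1 to 12, and 2 with DESeq2 size factors, against 5, and that between tissues in older mice 1693 by DESeq2 and 470 (without older pituitary 200M replicate 2) against 1082. Pituitary Fshr, Amh, Amhr2 and Fst had 0 to 14 counts a library, too few to be kept for the test.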

Other observations

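The hypothalamus libraries entered none of the comparisons of the report, and none of the 10 genes exceeded 36.9 CPM in them. In young mice the median of Inha was 17.9 CPM in hypothalamus and 25.9 CPM in pituitary, and that of Nr5a2 was 9.8 and 4.11 CPM. Inha was the highest per kilobase, at 10.0 to 20.9 CPM in the 12 young libraries and 21.6 to 36.9 CPM in the 11 older ones. Inhbb was at 1.76 to 9.96 and 7.95 to 14.4 CPM, Nr5a2 at 5.96 to 23.5 and 3.92 to 7.28 CPM, and Inhba at 4.75 to 10.9 and 0.361 to 2.15 CPM, each in young and older libraries respectively. Fshr had 0 counts in 10 of the 12 young and in all 11 older libraries, which allows up to 0.216 to 0.903 CPM depending on the library. Amh, Amhr2, Foxl2, Fst and Insl3 stayed at or under 2.42 CPM in every hypothalamus library.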
